A study of Rattus norvegicus with 6 samples.

Results

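The translation initiation factors were the 52 genes of the table whose symbol begins with Eif followed by a digit from 1 to 6, out of 32623 genes in all. All 52 had a mean FPKM (fragments scaled to gene length and library size) of at least 0.5 and were among the 13964 genes tested. Membership was set by the symbols only, although the list itself was chosen with earlier results of these data known. RNA was measured in bulk myocardial tissue of rats described as wild-type and male. The 3 sham and the 3 ischemia samples all carried the time label 30 min, and ischemia was made by ligating the left anterior descending coronary artery. The sources do not state that these 6 samples were separate animals or which wall of the heart was taken, so p-values measure the spread between these samples.

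Initiation is the stage of protein synthesis at which a ribosome is placed on the start codon of an mRNA. eIF2 brings the initiator Met-tRNA to the small ribosomal subunit, eIF1, eIF1A and eIF3 hold the subunit open for scanning, and the eIF4 factors bind the mRNA cap and unwind the leader before eIF5 and eIF5B let the large subunit join. Phosphorylation of the alpha subunit of eIF2 and sequestration of eIF4E by its binding proteins are the main brakes, and protein synthesis in the heart is known to fall when oxygen and ATP run short.

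Total counts lay between 68529126 and 79591989 per sample, so that 3 counts corresponded to 0.0377 to 0.0438 CPM, which are counts relative to the library total, a floor that covers counting error only. The labels named no batch, and the mitochondrial genome took 15.4% to 21.4% of counts. Cardiomyocyte markers were abundant in every sample, and the atrial markers varied widely within sham. Their summed FPKM over 6 genes ranged from 252 to 48457 in sham, with the lowest value in sham replicate 2, and from 1288 to 9643 in ischemia. All 6 atrial markers had negative log2 fold changes (median -3.60) and 2 lay wholly below sham, with 0 past the threshold in edgeR, 2 lower at an unadjusted p under 0.05 and 1 lower in DESeq2. The summed FPKM of the 10 ventricular markers was 26279 to 44459 in sham and 12925 to 25975 in ischemia, and 8 of the 10 had a negative log2 fold change, with 0 past the threshold in edgeR, 3 lower at an unadjusted p under 0.05 and 3 lower in DESeq2. Of 15 neutrophil and monocyte markers tested, 11 were higher in ischemia, and their summed FPKM was 149 to 209 in sham and 1317 to 8991 in ischemia, with the highest sum in ischemia replicate 2. Of 6 fibroblast markers tested, 5 had negative log2 fold changes (median of the 6 -1.59) and 3 had ischemia FPKM wholly below sham. In edgeR 0 of the 6 passed, with 1 higher and 3 lower at an unadjusted p under 0.05, and DESeq2 called 1 higher and 3 lower. Their summed FPKM was 687 to 2237 in sham and 301 to 690 in ischemia, and that of 6 endothelial markers, 0 of which reached an unadjusted p under 0.05 in edgeR or passed in DESeq2, was 157 to 178 and 157 to 200. No tested marker of these lists was at 0 in all samples of a group. In bulk tissue, fewer cells of a type and less RNA per cell cannot be told apart, and the part of these cell markers in the results that follow was not tested.

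The initiation factors as a group took a larger share of the RNA in ischemia. They held 0.534%, 0.432% and 0.521% of the counts in the sham samples, and 0.710%, 0.930% and 0.771% in the ischemia samples, here and below in the order of replicates 1, 2 and 3. All 3 ischemia samples lay above all 3 sham samples, with sham replicate 2 lowest and ischemia replicate 2 highest. Their summed FPKM was 2401 ± 231 in sham and 4083 ± 460 in ischemia (SD, n = 3 each). Of the gain of 1683, the elongation-type factor gene Eif5a supplied 24.0% and the helicase gene Eif4a1 supplied 19.5%.

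In the edgeR quasi-likelihood test, 10 of the 52 genes (19.2%) were higher in ischemia at an adjusted p under 0.05, where 5.18% of all tested genes were, and 0 were lower, where 1.53% of all tested genes were. At an unadjusted p under 0.05, edgeR had 20 higher (38.5%, against 18.2% of all tested genes) and 1 lower (14.2% of all tested genes), and DESeq2 also had 0 lower at its adjusted threshold. The log2 fold change was positive for 43 genes and negative for 9, and its median was 0.40, beside -0.001 over all tested genes. FPKM in ischemia lay wholly above sham for 29 genes (55.8%, against 23.6% of all tested genes) and wholly below for 1 (1.92%, against 15.0%), and on TMM-scaled CPM these counts were 24 and 1, where 22.0% and 19.1% of all tested genes lay wholly above and below. At a log2 fold change above 2 with p under 0.01, 1 gene passed (1.92%, against 3.31%). The 10 higher genes were Eif1a, Eif4a1, Eif2b3, Eif4ebp1, Eif2s1, Eif6, Eif1ad, Eif5a, Eif3b and Eif3d. The count of 10 fell to 0 when any of the sham replicates or ischemia replicate 3 was left out, in fits where no gene of the whole table passed and where 14 to 17 initiation factors were higher at an unadjusted p under 0.05. Without ischemia replicate 1 it was 15, where 10.7% of all tested genes were higher, and without ischemia replicate 2 it was 5, where 3.31% were. Passing a threshold refers to this edgeR test unless another tool is named. DESeq2 called 9 further genes higher, Eif1ax, Eif2s2, Eif3a, Eif3c, Eif3g, Eif3i, Eif4a3, Eif4e2 and Eif5, where it called 14.8% of all tested genes higher and 12.5% lower.

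**Figure D1:**
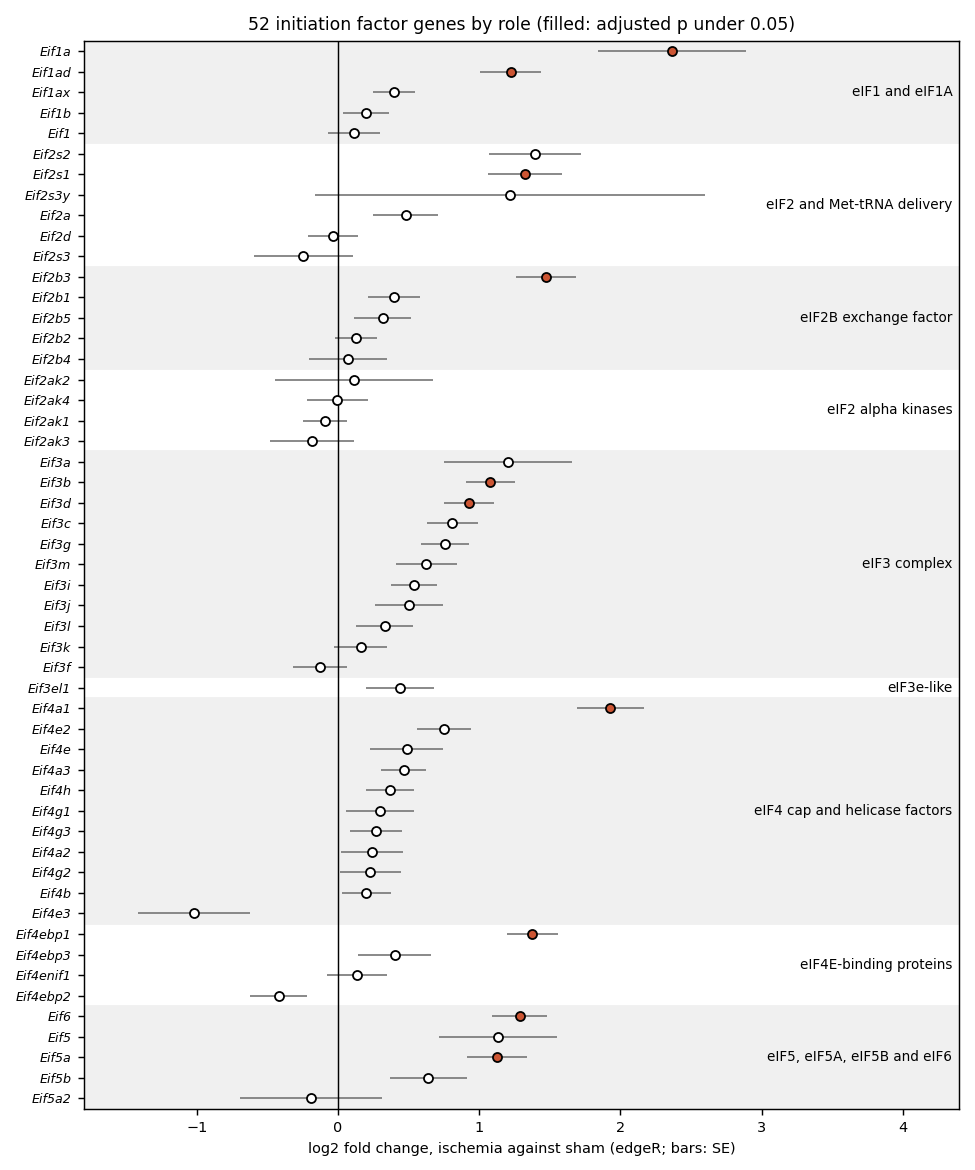
Log2 fold change of each of the 52 initiation factor genes (ischemia over sham, edgeR, 3 samples a group, horizontal axis) by role in initiation, with bars of 1 standard error; filled points passed an adjusted p of 0.05. The 10 filled points all lie right of 0 and the 4 points of the eIF2 kinases lie near 0.

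eIF1 and eIF1A bind the small ribosomal subunit next to its decoding site and keep it scanning until a start codon is found. All 5 genes of this group had positive log2 fold changes, as had 6968 of the 13964 tested genes. Of the 5, 2 passed as higher, where 5.18% of all tested genes did. FPKM of Eif1a, a gene copy for eIF1A at 40586315 to 40597671 on chromosome 18 in the coordinates of the table, was 9.23, 3.28 and 8.53 in sham and 19.0, 66.0 and 28.9 in ischemia. These groups did not overlap, but ischemia replicate 2 stood far above the other ischemia samples. Its log2 fold change of 2.37 ± 0.52 (SE) was the largest among the initiation factors (edgeR adjusted p = 0.0497), and it was 1.79 without ischemia replicate 2 (adjusted p = 0.0708).

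Eif1ad encodes a protein with an eIF1A-like domain. Its FPKM was 5.76, 3.82 and 5.63 in sham and 9.55, 15.6 and 12.3 in ischemia, without overlap, and it rose by 1.22 ± 0.22 on the log2 scale (edgeR adjusted p = 0.0373; gene at 220746387 to 220751684 on chromosome 1). The X-linked eIF1A gene Eif1ax had FPKM of 19.5, 17.6 and 20.2 in sham and 24.7, 30.8 and 25.0 in ischemia, again without overlap, with a log2 fold change of 0.40 (edgeR adjusted p = 0.127). Eif1, the most abundant initiation factor in sham, had 346 ± 31.2 in sham and 399 ± 34.9 in ischemia (SD, n = 3 each) and a log2 fold change of 0.12, the smallest of the group. Its close relative Eif1b had FPKM of 35.2, 24.1 and 35.7 in sham and 40.5, 42.1 and 32.3 in ischemia, with overlapping groups and a log2 fold change of 0.20.

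eIF2 is a trimer of alpha, beta and gamma subunits that carries the initiator tRNA as a complex with GTP. Eif2s1, the alpha subunit and the target of the stress kinases, had FPKM of 30.8, 18.7 and 27.0 in sham and 47.2, 93.9 and 61.6 in ischemia. No sham sample reached the lowest ischemia sample, and the log2 fold change was 1.32 ± 0.26 (edgeR adjusted p = 0.0430; gene at 102048372 to 102073041 on chromosome 6). The beta subunit gene Eif2s2 had 34.3, 21.4 and 36.2 in sham and 52.4, 129.7 and 74.1 in ischemia, also without overlap. Its log2 fold change was 1.39 ± 0.33, and it missed the threshold (edgeR adjusted p = 0.0532), with ischemia replicate 2 well above the other samples.

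The gamma subunit has an X-linked gene, Eif2s3, and a Y-linked one, Eif2s3y, whose reads could be split between near-identical copies because the counting rule is not stated in full. FPKM of Eif2s3 was 32.0, 10.8 and 16.6 in sham and 14.6, 21.0 and 16.4 in ischemia, with overlapping groups and a log2 fold change of -0.25 that became 0.22 without sham replicate 1. FPKM of Eif2s3y was 0.0200, 4.85 and 9.24 in sham and 8.32, 18.5 and 8.87 in ischemia, with a log2 fold change of 1.22 ± 1.38 (edgeR adjusted p = 0.561). Over the 14 alternatives this log2 fold change ranged from 0.64 to 2.66. Sham replicate 1 stood apart with 4 counts of Eif2s3y, against 894 to 3154 in the other samples, and with the highest level of Eif2s3, while the labels describe male rats. The ratio of Eif2s3 to Eif2s3y, a pair chosen after the values were seen, was 1600, 2.22 and 1.80 in sham and 1.76, 1.13 and 1.85 in ischemia. Lastly, Eif2a and Eif2d encode single-chain proteins that can deliver tRNA without eIF2. Their log2 fold changes were 0.48 and -0.04, and neither passed.

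eIF2B reloads eIF2 with GTP after each round, and phosphorylated eIF2 blocks it. Of its 5 subunit genes, 1 passed as higher, where 5.18% of all tested genes did. That gene was Eif2b3, which encodes the gamma subunit of the catalytic part. FPKM of Eif2b3 was 4.45, 3.44 and 4.53 in sham and 9.34, 14.4 and 12.7 in ischemia, so that even the lowest ischemia sample had more than any sham sample. The log2 fold change was 1.47 ± 0.21 (edgeR adjusted p = 0.0291; gene at 135882967 to 135949818 on chromosome 5). The other subunit genes had log2 fold changes between 0.07 and 0.40. The lowest was the delta subunit gene Eif2b4, with FPKM of 22.0, 31.4 and 24.4 in sham and 33.2, 25.4 and 29.8 in ischemia. Its groups overlapped (log2 fold change 0.07 ± 0.28, edgeR adjusted p = 0.870). The alpha, beta and epsilon genes Eif2b1, Eif2b2 and Eif2b5 had ischemia FPKM wholly above sham without passing the test, as had 23.6% of all tested genes. On TMM-scaled CPM the groups of Eif2b5 overlapped.

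The 4 kinases that phosphorylate eIF2 on its alpha subunit respond to different stresses, and 0 of them passed in either direction in edgeR, in DESeq2 or at an unadjusted p under 0.05. FPKM of Eif2ak1, the heme-regulated kinase, was 12.5, 11.3 and 12.5 in sham and 12.9, 12.9 and 10.5 in ischemia. Its log2 fold change was -0.09 ± 0.16, with overlapping groups. Eif2ak2, the kinase activated by double-stranded RNA, had 7.59, 4.26 and 4.83 in sham and 3.55, 13.2 and 2.94 in ischemia. Ischemia replicate 2 was the highest of all 6 samples and ischemia replicates 1 and 3 were the lowest, so the log2 fold change of 0.11 ± 0.56 became -0.81 without ischemia replicate 2.

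Eif2ak3, the kinase of the endoplasmic reticulum membrane known as PERK, had FPKM of 4.15, 2.67 and 4.24 in sham and 2.86, 5.18 and 2.34 in ischemia. As for Eif2ak2, ischemia replicate 2 was highest and the groups overlapped. Its log2 fold change was -0.18 ± 0.30. Eif2ak4, the amino acid sensor GCN2, had 1.54, 1.15 and 1.58 in sham and 1.30, 1.99 and 1.25 in ischemia, with a log2 fold change of -0.004 ± 0.22. The edgeR adjusted p-values of the 4 kinases ranged from 0.687 to 0.992. Kinase activity is set by phosphorylation, which RNA levels do not measure.

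eIF3 is the largest initiation factor, a scaffold of many subunits on the small ribosomal subunit. Of the 11 subunit genes in the table that were listed for it, 10 had positive log2 fold changes. Of these, 2 passed the adjusted threshold, where 5.18% of all tested genes were higher. On FPKM 9 of the 11 lay wholly above sham and on TMM-scaled CPM 6 did, beside 23.6% and 22.0% of all tested genes, and 7 were higher at an unadjusted p under 0.05, beside 18.2%. Eif3b, a core subunit, had FPKM of 39.6, 36.1 and 41.6 in sham and 76.7, 98.2 and 88.5 in ischemia. Both groups were narrow and well separated, and the log2 fold change was 1.08 ± 0.17 (edgeR adjusted p = 0.0339; gene at 16285733 to 16310190 on chromosome 12). Eif3d, a subunit that can itself bind the cap of some mRNAs, had 49.7, 46.1 and 48.8 in sham and 87.9, 100.3 and 104.7 in ischemia. It rose by 0.93 ± 0.18 on the log2 scale, with the sham samples almost level (edgeR adjusted p = 0.0415; gene at 119188185 to 119200623 on chromosome 7).

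Log2 fold changes of the eIF3 subunit genes ranged from -0.13 to 1.20. Eif3a, the largest core subunit, had the highest log2 fold change of the complex, 1.20 ± 0.45, but its FPKM of 17.5, 6.50 and 14.9 in sham and 17.0, 51.3 and 25.4 in ischemia overlapped, and it did not pass (edgeR adjusted p = 0.130; log2 fold change 0.72 without ischemia replicate 2). Eif3c and Eif3g lay just outside the threshold, with log2 fold changes of 0.81 and 0.75 and edgeR adjusted p-values of 0.0504 and 0.0510. At the other end, Eif3f had 135.2, 131.9 and 151.4 in sham and 150.3, 121.8 and 133.9 in ischemia, with a log2 fold change of -0.13 ± 0.19. It was the only subunit gene with a negative value in edgeR, and it stayed negative under all 14 alternatives. Eif3el1, a copy of the eIF3 subunit E gene that may share reads with its source, had overlapping groups and a log2 fold change of 0.44 (edgeR adjusted p = 0.246). The subunit E and H genes themselves were not analysed here.

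The eIF4 factors bind the cap (eIF4E), bridge it to the ribosome (eIF4G) and unwind the leader (eIF4A, helped by eIF4B and eIF4H). Among these 11 genes 10 had positive log2 fold changes, and 1 passed as higher, where 5.18% of all tested genes did. FPKM of Eif4a1, the main eIF4A helicase gene of dividing cells, was 107.8, 89.0 and 126.7 in sham and 329.9, 539.2 and 436.8 in ischemia. Even the lowest ischemia sample was far above the highest sham sample. The fold was 3.81 (log2 fold change 1.93 ± 0.23, edgeR adjusted p = 0.0272; gene at 56271257 to 56276764 on chromosome 10), and Eif4a1 went from the 6th most abundant initiation factor in sham to the 2nd in ischemia.

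Neither of its paralogues passed in edgeR. Eif4a2, the second eIF4A helicase, had FPKM of 134.5, 84.7 and 115.4 in sham and 108.7, 157.0 and 149.3 in ischemia, with overlapping groups and a log2 fold change of 0.24 ± 0.22 (edgeR adjusted p = 0.472). Eif4a3, a nuclear helicase of the exon junction complex that shares the family name, had 45.4, 38.9 and 49.9 in sham and 56.6, 77.7 and 62.5 in ischemia. Those groups did not overlap, and the log2 fold change was 0.47 ± 0.16 (adjusted p = 0.111 in edgeR and 0.0355 in DESeq2, which called it higher).

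None of the cap-binding genes passed in edgeR. Eif4e, the cap-binding subunit itself, had FPKM of 29.7, 29.6 and 23.5 in sham and 34.8, 57.0 and 34.4 in ischemia, without overlap (log2 fold change 0.49 ± 0.26, edgeR adjusted p = 0.231). On TMM-scaled CPM the groups of Eif4e overlapped. Eif4e2, a cap binder known for repressing translation and for a role in low oxygen, had 12.0, 13.9 and 12.8 in sham and 22.0, 26.4 and 21.8 in ischemia, without overlap (log2 fold change 0.75 ± 0.19, edgeR adjusted p = 0.0630). It was called higher with total-count scaling in edgeR (adjusted p = 0.0488), in DESeq2 (0.0102) and in both limma fits (0.0437 and 0.0465). Eif4e3, a cap-binding relative found in muscle, had 20.5, 7.63 and 14.0 in sham and 5.73, 11.3 and 4.84 in ischemia. It had the most negative log2 fold change of the initiation factors, -1.02 ± 0.39, with sham replicate 2 inside the ischemia range (edgeR adjusted p = 0.136).

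The scaffold genes were close to level. Eif4g1, the main scaffold, had FPKM of 46.0, 56.6 and 50.6 in sham and 63.9, 63.4 and 74.3 in ischemia, and Eif4g3, a second scaffold, had 11.7, 9.28 and 11.5 in sham and 11.0, 17.7 and 13.1 in ischemia. Eif4g2, a relative that lacks the eIF4E-binding part, had 132.7, 84.0 and 110.9 in sham and 122.5, 165.5 and 118.5 in ischemia. On FPKM the groups of Eif4g1 did not overlap and those of Eif4g2 and Eif4g3 did. On TMM-scaled CPM the groups of each of these genes overlapped. The log2 fold changes of these scaffold genes lay between 0.23 and 0.29, none past the threshold.

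The eIF4E-binding proteins block cap-dependent initiation until mTOR, a growth-controlling kinase, phosphorylates them. Eif4ebp1 had FPKM of 69.7, 51.9 and 84.7 in sham and 172.5, 194.9 and 193.4 in ischemia. All ischemia samples were close together and well above sham, and the log2 fold change was 1.38 ± 0.18 (edgeR adjusted p = 0.0272; gene at 68954875 to 68968248 on chromosome 16). Eif4ebp2, a second binding protein, had 18.6, 19.1 and 17.6 in sham and 16.1, 13.5 and 14.5 in ischemia. It was the only initiation factor whose ischemia samples all lay below sham, but its log2 fold change of -0.42 ± 0.20 did not pass (edgeR adjusted p = 0.195). The low-abundance Eif4ebp3 had 4.08, 2.31 and 3.79 in sham and 3.56, 6.63 and 4.02 in ischemia, with overlapping groups (log2 fold change 0.40). Eif4enif1, which carries eIF4E into the nucleus, had a log2 fold change of 0.13.

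eIF5 triggers GTP hydrolysis on eIF2 at the start codon, eIF5B joins the subunits, eIF5A helps peptide bonds form and stalled ribosomes move on, and eIF6 keeps free large subunits from joining. Of these 5 genes, 2 passed as higher, where 5.18% of all tested genes did. Eif5a had FPKM of 272.2, 294.3 and 344.1 in sham and 758.3, 716.4 and 645.0 in ischemia. Its ischemia samples were tight and none came near sham (log2 fold change 1.13 ± 0.21, edgeR adjusted p = 0.0397; gene at 56527085 to 56531483 on chromosome 10), and it became the most abundant initiation factor in ischemia, ahead of Eif4a1 and Eif1.

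Eif6 had FPKM of 33.7, 30.8 and 39.7 in sham and 70.1, 107.4 and 93.3 in ischemia, without overlap. It rose by 1.29 ± 0.19 on the log2 scale (edgeR adjusted p = 0.0303; gene at 151356868 to 151363115 on chromosome 3). Eif5 had a similar log2 fold change, 1.13 ± 0.42, but FPKM of 38.4, 16.1 and 33.5 in sham and 34.7, 99.6 and 67.3 in ischemia, so ischemia replicate 1 lay inside the sham range (edgeR adjusted p = 0.125). Eif5a2, the rare second eIF5A gene, had 1.53, 0.526 and 1.85 in sham and 0.751, 1.93 and 0.886 in ischemia, with a log2 fold change of -0.19 ± 0.50 (edgeR adjusted p = 0.814). Eif5b had a log2 fold change of 0.64 ± 0.27 and did not pass (edgeR adjusted p = 0.158).

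**Figure D2:**
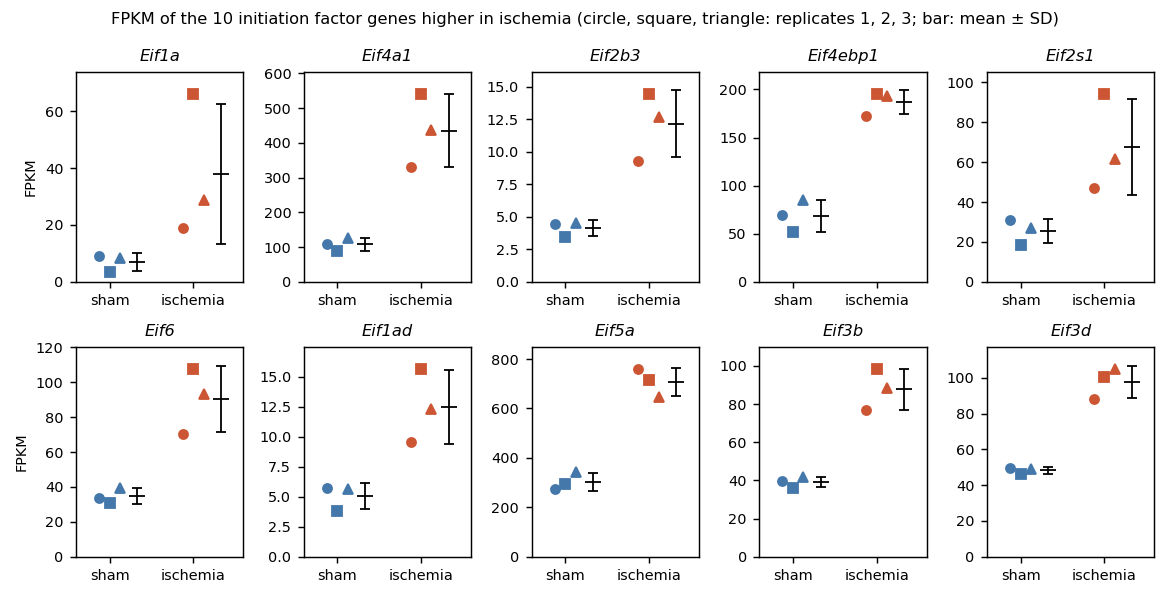
FPKM in each sample (vertical axes from 0, 1 panel per gene) of the 10 initiation factor genes past an adjusted p of 0.05 in edgeR, with 3 sham (blue) and 3 ischemia (red) samples as points, shaped by replicate, and bars for mean ± SD. In all 10 panels every ischemia point lies above every sham point, and the ischemia points of Eif1a run from 19.0 to 66.0.

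Ratios between paralogues within a sample do not depend on library scaling. For 13 pairs, the log2 FPKM ratio was compared between groups with a two-sided exact permutation test, which for 3 samples against 3 cannot give a p below 0.1 and so cannot reach 0.05. The ratio of Eif4a1 to Eif4a2 was 0.801, 1.05 and 1.10 in sham and 3.03, 3.44 and 2.93 in ischemia. Both helicase genes had about equal FPKM in sham and Eif4a1 led in every ischemia sample, a difference of 1.68 in the log2 ratio (exact permutation p = 0.1, 0.217 adjusted over the 13 pairs). The log2 ratio of Eif4a1 to Eif4a3 differed by 1.45, also without overlap.

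Among the binding proteins, the ratio of Eif4ebp1 to Eif4ebp2 was 3.74, 2.72 and 4.83 in sham and 10.7, 14.4 and 13.4 in ischemia. That difference of 1.80 in the log2 ratio was the largest of the 13 pairs, and that of Eif4ebp1 to Eif4ebp3 differed by 1.0, also without overlap. Eif4e over Eif4e3 was 1.45, 3.88 and 1.68 in sham and 6.07, 5.03 and 7.12 in ischemia, a difference of 1.51 in log2 without overlap. The log2 ratio of Eif1ad to Eif1ax differed by 0.81 without overlap. In each of these 6 pairs the exact permutation p was 0.1 (0.217 adjusted), the smallest this design can give.

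The other 7 pairs overlapped between groups. The ratio of Eif5a to Eif5a2 differed by 1.29 in log2, but ranged from 178 to 559 in sham and from 371 to 1010 in ischemia (exact permutation p = 0.2). The differences were small for Eif1 over Eif1b (-0.08), Eif4e over Eif4e2 (-0.28), Eif4g1 over Eif4g2 (0.08), Eif4g1 over Eif4g3 (0.06), Eif2ak1 over Eif2ak2 (0.06) and Eif2ak3 over Eif2ak4 (-0.21). For these 6 pairs exact permutation p-values ranged from 0.2 to 1.0. A further pair, chosen after the values were seen, was Eif1a over Eif1ax, with ratios of 0.473, 0.187 and 0.422 in sham and 0.771, 2.14 and 1.15 in ischemia, so that Eif1a exceeded its X-linked relative only in ischemia replicates 2 and 3.

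**Figure D3:**
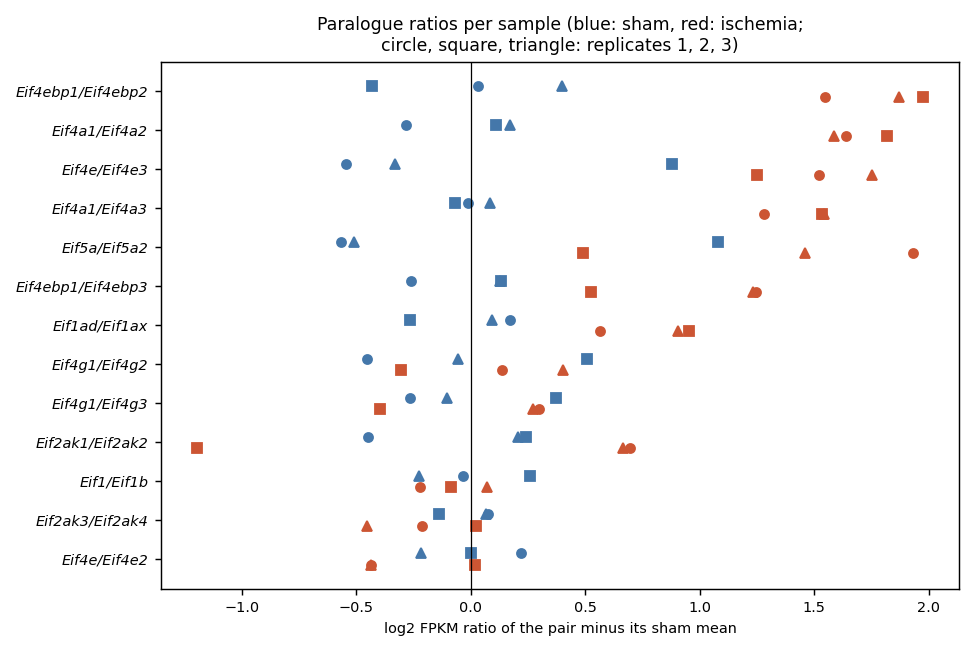
Log2 FPKM ratio of each of 13 paralogue pairs in each sample, less the pair's sham mean (horizontal axis), with 3 sham samples in blue and 3 ischemia samples in red, shaped by replicate. In the pairs led by Eif4a1 or Eif4ebp1 every ischemia point lies right of every sham point, while pairs of scaffold and kinase genes overlap.

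Within each group, 1 sample stood at the outer edge for most initiation factors. Of the 52 genes, 35 had their highest FPKM in ischemia replicate 2 and 36 had their lowest in sham replicate 2. The matching counts over all tested genes were not computed. These FPKM carry no TMM scaling, and the TMM factor was lowest in sham replicate 2 (0.834) and highest in ischemia replicate 2 (1.11). Ischemia replicate 2 over the mean of ischemia replicates 1 and 3 had a median ratio of 1.29 over the initiation factors and 1.09 over all tested genes. The corresponding ratio of sham replicate 2 was 0.818 and 0.778. Sham replicate 2 also had the highest mitochondrial share and the lowest summed atrial markers, and ischemia replicate 2 the highest summed leukocyte markers and the lowest summed ventricular markers, and the part of these in the spread was not tested.

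The genes differed in how much ischemia replicate 2 departed from the rest of its group. The ratio was 4.07 for Eif2ak2, 2.75 for Eif1a, 2.42 for Eif3a, 2.36 for Eif5a2 and 2.05 for Eif2s2. It was 1.02 for Eif5a, 1.04 for Eif3d and 1.07 for Eif4ebp1, 3 genes past the threshold. Across the 52 genes the Spearman correlation between the sham replicate 2 ratio and the ischemia replicate 2 ratio was -0.672, and over all tested genes it was -0.236. The points share the same 6 libraries and scaling, so the correlation describes these samples only.

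**Figure D4:**
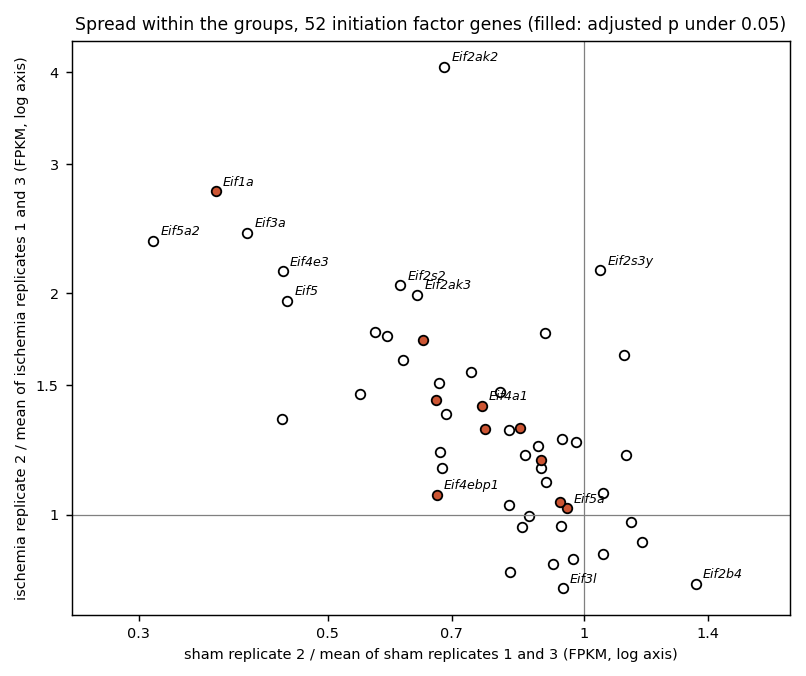
FPKM of sham replicate 2 over the mean of sham replicates 1 and 3 (horizontal axis) against FPKM of ischemia replicate 2 over the mean of ischemia replicates 1 and 3 (vertical axis), 1 point per initiation factor gene on log axes, filled where the adjusted p was under 0.05. Genes low in sham replicate 2 tend to be high in ischemia replicate 2 (Spearman correlation -0.672, 52 genes), while Eif5a lies at 1.02 on the vertical axis.

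Other genes that act with the initiation factors were read from the same fit, in which 5.18% of all tested genes were higher and 1.53% lower. At an unadjusted p under 0.05 these shares were 18.2% and 14.2%, and in DESeq2 at its adjusted threshold 14.8% and 12.5%. Of 17 initiation partners tested, edgeR called 1 higher and 0 lower (4 higher and 2 lower at an unadjusted p under 0.05, and 3 higher and 2 lower in DESeq2). That gene was Pabpc1, the poly(A)-binding protein that joins the mRNA tail to eIF4G, with FPKM of 51.3, 39.8 and 61.5 in sham and 141.1, 270.0 and 169.1 in ischemia, without overlap (log2 fold change 1.84 ± 0.27, edgeR adjusted p = 0.0298). The lowest of that list was Bzw2, an eIF5 mimic, with a log2 fold change of -1.23 and ischemia FPKM wholly below sham (edgeR adjusted p = 0.0894). DESeq2 called it lower (adjusted p = 0.0124), as did edgeR without ischemia replicate 1 (adjusted p = 0.0388).

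Of 12 genes that control eIF2 phosphorylation or are induced through it, 0 passed in edgeR at the adjusted threshold, and 5 were higher at an unadjusted p under 0.05, where 18.2% of all tested genes were. DESeq2 called 3 of them higher, Trib3 included, where it called 14.8% of all tested genes higher. Atf4, the transcription factor translated when eIF2 is phosphorylated, had FPKM of 84.6, 73.0 and 90.6 in sham and 123.7, 398.1 and 258.8 in ischemia (log2 fold change 1.55 ± 0.40, edgeR adjusted p = 0.0632). The groups did not overlap, and ischemia replicate 2 was again highest. Trib3, a target of that pathway, had the largest log2 fold change of the list, 3.27 ± 1.04, but FPKM of 2.51, 20.8 and 1.28 in ischemia (edgeR adjusted p = 0.0952), and the log2 fold change was 1.28 without ischemia replicate 2. Impact, an inhibitor of GCN2, had the lowest, -0.26.

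Of 12 genes of mTOR control, edgeR called 2 higher and 0 lower (2 higher and 2 lower at an unadjusted p under 0.05, and 2 higher and 1 lower in DESeq2). Ddit4, an inhibitor of mTOR induced by low oxygen, had FPKM of 15.2, 13.0 and 16.4 in sham and 44.9, 59.1 and 29.5 in ischemia, without overlap (log2 fold change 1.48 ± 0.24, edgeR adjusted p = 0.0327). Rps6, the ribosomal protein phosphorylated downstream of mTOR, had FPKM of 276.8, 224.7 and 310.2 in sham and 498.2, 554.8 and 531.9 in ischemia, without overlap, and rose by 0.89 ± 0.17 on the log2 scale (edgeR adjusted p = 0.0418), a call lost with total-count scaling (0.0513), without a filter (0.0551) and without ischemia replicate 2 (0.0595). Mtor itself had a log2 fold change of -0.05, and the lowest was that of the mTOR-binding inhibitor Deptor, at -0.79 (edgeR adjusted p = 0.178).

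Of 10 elongation and termination factors tested, edgeR called 3 higher and 0 lower (7 higher and 1 lower at an unadjusted p under 0.05, and 6 higher and 0 lower in DESeq2). Eef1b2 and Eef1e1 belong to the complexes around elongation factor eEF1A. FPKM of Eef1b2 was 103.9, 85.1 and 121.8 in sham and 246.6, 294.2 and 248.0 in ischemia, and that of Eef1e1 was 9.33, 6.23 and 9.59 in sham and 17.8, 27.7 and 21.1 in ischemia. Neither overlapped, and they rose by 1.26 ± 0.17 and 1.33 ± 0.20 on the log2 scale (edgeR adjusted p = 0.0272 and 0.0303). Gspt1, a termination factor, had FPKM of 21.0, 17.4 and 19.1 in sham and 30.7, 46.9 and 35.9 in ischemia, also without overlap, and rose by 0.89 ± 0.19 (edgeR adjusted p = 0.0494). That call was lost in edgeR with median-ratio scaling (adjusted p = 0.0517), total-count scaling (0.0577), no filter (0.0651) and without ischemia replicate 2 (0.0781). The highest value was that of the termination factor gene Etf1, 1.37 ± 0.36, which did not pass (edgeR adjusted p = 0.0655). DESeq2 called Etf1 higher (adjusted p = 0.0045), as did edgeR without ischemia replicate 1 (adjusted p = 0.0281). The lowest value was that of the muscle form Eef1a2, -0.95 ± 0.54 (edgeR adjusted p = 0.263), which was -0.56 without ischemia replicate 2.

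Promoters were read from RefSeq windows on GRCr8 that run from 250 bases before to 50 after each start, and 48 of the 52 genes matched, with 51 windows because some have alternative starts. The palindromic E-box CACGTG, the letters bound by MYC and related factors, was searched because ribosome and initiation genes are known to carry it, and it reads the same on both strands. It was present in 9 of 51 windows (17.6%), in 977 of 10744 windows of tested genes (9.09%) and in 2148 of 33469 windows in all (6.42%). The table held 10 windows for 9 of the 10 genes past the threshold, all but Eif4ebp1, and the motif was in 2 of these windows, those of Eif5a and Eif3b. The stretches around the motif in these 2 genes, and in the 6 that did not pass but hold it before the start, are shown 5′ to 3′ on the gene's strand, with the motif in capitals, so that genes which did and did not pass can be read side by side.
Eif5a: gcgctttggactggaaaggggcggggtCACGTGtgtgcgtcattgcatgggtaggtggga
Eif3b: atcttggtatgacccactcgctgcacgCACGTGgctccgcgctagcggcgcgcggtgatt
Eif4e: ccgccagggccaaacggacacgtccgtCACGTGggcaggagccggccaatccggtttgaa
Eif4g1: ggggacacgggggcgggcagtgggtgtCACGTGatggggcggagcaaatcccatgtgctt
Eif1b: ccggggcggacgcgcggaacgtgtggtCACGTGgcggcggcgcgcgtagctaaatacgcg
Eif4h: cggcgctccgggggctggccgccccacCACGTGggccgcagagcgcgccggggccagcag
Eif3f: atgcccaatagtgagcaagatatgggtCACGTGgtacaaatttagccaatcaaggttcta
Eif5a2: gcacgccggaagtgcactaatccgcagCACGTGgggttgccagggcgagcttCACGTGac
The stretch of Eif5a is chr10:55143395-55143454 on the minus strand, with the motif 206 bases before the start, and that of Eif3b is chr12:19334793-19334852 on the minus strand, 57 bases before the start. Those of Eif4e (chr2:229740646-229740705, plus strand), Eif4g1 (chr11:93746389-93746448, minus strand) and Eif1b (chr8:129081077-129081136, plus strand) hold it 80, 54 and 54 bases before the start. Those of Eif4h (chr12:27719497-27719556, plus strand), Eif3f (chr1:172368976-172369035, plus strand) and Eif5a2 (chr2:113657611-113657670, plus strand) hold it 168, 59 and 196 bases before the start, and the windows of Eif5a2 and Eif4e have it again at 171 and 237. Eif4g1 also has it after the start. Eif3a, the remaining gene, has it only after the start and is not shown. The motif is a description of these letters, and binding was not measured. The log2 fold changes of the 8 genes, in the order shown, were 1.13, 1.08, 0.49, 0.29, 0.20, 0.37, -0.13 and -0.19, and that of Eif3a was 1.20.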

How the data were processed

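Total RNA of rat myocardium was sequenced from libraries of a strand-aware kit, with 3 sham and 3 ischemia samples grouped by their labels. The raw read counts per gene deposited by the authors were not normalized, and the authors also deposited FPKM for the same genes. The submitters' processing notes name STAR and HTSeq, and their versions, their settings and the genome build are not given in the sources used here, so reads of near-identical copies or overlapping genes may have been split or lost. Counts and FPKM of a gene differed by 1 constant factor per sample, within 1%, for 98.3% of 12080 genes. Genes whose FPKM averaged 0.5 or more were tested with the quasi-likelihood test of edgeR 4.0.16 in R 4.3.3, with TMM scaling, no covariates, two-sided p-values and Benjamini-Hochberg adjustment over all 13964 genes, at a threshold of 0.05. Standard errors were derived from the F statistic. For single ratios a two-sided exact permutation test was used. The test was checked on simulated data.

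The initiation factors and all lists were chosen with earlier results of these data known. Per-sample values are given for genes past the threshold, for the highest and lowest log2 fold change of each role group and for paralogue pairs, and a few more genes near the threshold were named after their values were seen. Alternatives were median-ratio and total-count scaling, DESeq2 1.42.0, limma 3.58.1 on log2(FPKM + 0.1) and log2(FPKM + 1), no filter, a mean FPKM of at least 5, the replicate number as a block, and each sample left out. A pathway column of the table was not used for a test. Total counts of 68529126 to 79591989 per sample set the counting error, and the standard errors also hold the spread between samples. Chromatin data and reperfusion samples were not analysed here.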

Additional observations from a re-analysis of the deposited data

How the results depend on the processing

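The count of 10 higher initiation factors (5.18% of all tested genes were higher) was 10 with median-ratio scaling (4.96% of all), 8 with total-count scaling (3.65%), 7 without a filter (2.4%), 12 of 48 at a mean FPKM of at least 5 (8.89%), 13 and 11 with limma on log2(FPKM + 0.1) and log2(FPKM + 1) (6.09% and 4.7%), and 19 with DESeq2 (14.8%). Without 1 sample it ranged from 0 to 15. The count of lower ones was 0 under every alternative run, and the median log2 fold change lay between 0.34 and 0.49. Other pathway genes higher numbered 14 with DESeq2, 5 with median-ratio scaling (Gspt1 lost), 4 with total-count scaling and 4 without a filter (Gspt1 and Rps6 lost in each), and 0 to 12 without 1 sample (6 as reported), and lower ones 3 and 0 to 1 (0 as reported). Over all genes, the 723 higher and 214 lower became 509 and 83 with total-count scaling, 2071 and 1742 with DESeq2, 493 and 93 without a filter, and 0 to 1490 and 0 to 1115 without 1 sample. None of the 10 called genes changed sign under any alternative run. Eif2s1, Eif1ad and Eif1a lost their call with total-count scaling, Eif2s1 and Eif1a with limma on log2(FPKM + 1), Eif3d, Eif5a and Eif1a without a filter, and Eif3d, Eif2s1, Eif5a, Eif1ad and Eif1a without ischemia replicate 2. The cause was not tested, and the fits that left out 1 sample also had fewer residual degrees of freedom.

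Signs changed for genes and pairs that had not passed. With total-count scaling the log2 fold change was 0.0027 for Eif2ak1, 0.071 for Eif2d and 0.090 for Eif2ak4. With limma on log2(FPKM + 0.1) it was 0.064 for Eif2d, 0.063 for Eif2ak4 and -0.056 for Eif2ak2, and with 1 added 0.062, 0.043 and -0.017. Without a filter it was 0.013 for Eif2ak4. Leaving out 1 sample, it ranged from -0.080 to 0.37 for Eif2b4, -0.19 to 0.077 for Eif2ak4, -0.55 to 0.0076 for Impact, -0.49 to 0.22 for Eif2s3, -0.11 to 0.10 for Eif2d, -0.65 to 0.10 for Eif5a2, -0.81 to 0.44 for Eif2ak2 and -0.53 to 0.00013 for Eif2ak3. The log2 ratio difference ranged from -0.19 to 0.050 for Eif1 over Eif1b, -0.26 to 0.68 for Eif2ak1 over Eif2ak2, -0.15 to 0.33 for Eif4g1 over Eif4g2 and -0.077 to 0.28 for Eif4g1 over Eif4g3.

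A check for pairing by the replicate numbers in the labels found none, and with 3 samples a group it cannot exclude pairing. Deviations of same-numbered samples had correlations of -0.05, -0.08 and -0.19, and 0 of 6 samples correlated best with its own number. With a replicate block in edgeR, 0 initiation factors, 0 other pathway genes and 0 genes in all (0 higher and 0 lower) passed, 14 initiation factors were higher at an unadjusted p under 0.05, and Eif2ak2 had a log2 fold change of -0.17.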
